A study of Mus musculus with 12 samples.

Results

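The microRNAs named miR-297, miR-466, miR-467 and miR-669 form a rodent-specific family of near-copies, and many of them are encoded in tandem within the gene Sfmbt2 on mouse chromosome 2. The array carried 43 probes whose design name holds a mouse member of this family, of 595 probes named for mouse miRNAs. Members were chosen by a rule on their names, with earlier results of these data known. Each was printed as 4 spots that were averaged on every array. RNA came from the median liver lobe of male B6C3F1 mice aged 27 to 30 days by the labels. One group was given BaP (benzo(a)pyrene), a combustion product whose metabolites in liver bind DNA. The daily dose was 150 mg/kg, repeated over 3 days. The other group received the corn oil vehicle, and both were sampled 4 h after the last dose with 6 arrays per group. The series design also names a 24 h collection, which was not analysed here. On each of the 12 two-colour Exiqon arrays, 1 liver RNA carried the Hy5 dye and was set against a purchased reference pool of 10 mouse tissues (Hy3 dye), and no array had the dyes exchanged. A ratio therefore includes any dye bias of its probe. Since no label names the animal behind an array, the p-values cover the spread among these samples, which may be partly technical.

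A miRNA hairpin is cut into a 5′ and a 3′ strand, and the strand kept by an Argonaute protein represses transcripts that pair with its seed, bases 2 to 8. Older names mark the less abundant strand with a star. Sfmbt2 encodes a Polycomb-group protein, is imprinted and paternally expressed in extraembryonic tissue, and its miRNA cluster is known mainly from embryonic stem cells and placenta. Among single members, miR-669a has been reported to restrain muscle differentiation in mouse cardiac progenitors, miR-466l to stabilise Il10 transcripts in macrophages and miR-467b to target lipoprotein lipase.

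The name of the Sfmbt2 cluster fits most but not all of these probes. In RefSeq (assembly GRCm38.p6), 71 of 81 genes with these family names lie within Sfmbt2. All genes of 31 probes lie there, and 5 probes have copies both there and on chromosome 13 or 7. Another 6 probes, miR-466i, miR-466j, miR-466k, miR-467f, miR-467g and miR-467h, correspond to single genes on chromosomes 13, 10, 3, 11, 5 and 9. No gene was matched to the remaining probe, miR-466a-5p. The family is therefore called by its miRNA numbers below.

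RefSeq mature sequences were matched for 6 members, the 6 encoded outside Sfmbt2, and they show the repeats of these 6. They are given 5′ to 3′ with the seed in capitals and the strand of the gene, and the miRNAs miR-1187 and miR-574-5p follow because they are the other mouse miRNAs on the array whose matched sequence holds GUGUGUG or ACACACA.
miR-467g (chromosome 5, minus strand): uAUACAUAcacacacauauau
miR-467f (chromosome 11, minus strand): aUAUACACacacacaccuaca
miR-466i (chromosome 13, plus strand, RefSeq entry miR-466i-3p): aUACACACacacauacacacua
miR-467h (chromosome 9, plus strand): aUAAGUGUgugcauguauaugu
miR-466k (chromosome 3, plus strand): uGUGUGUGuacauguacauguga
miR-466j (chromosome 10, plus strand): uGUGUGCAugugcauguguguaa
miR-1187 (chromosome 5, minus strand): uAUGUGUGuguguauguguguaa
miR-574-5p (chromosome 5, plus strand): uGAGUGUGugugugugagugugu

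These sequences fall into a set of alternating C and A and a set of alternating U and G. The longest alternating C and A run was 9 bases in miR-467g, 12 in miR-467f and 11 in miR-466i. The longest alternating U and G run was 7 bases in miR-467h, 9 in miR-466k and 7 in miR-466j. The motifs were searched in the mature strand as written, and they were present in 5 of these 6 members, in 7 of the 193 mouse probes matched to a sequence and in 16 of all 1679 mature sequences (0.953%). The 6 members have 6 different seeds, so none of them shares a seed with another. Shifted against each other, whole sequences are alike, seed bases included: without gaps, miR-467g and miR-467f matched at 17 of 21 bases (81.0%) and miR-467f and miR-466i at 16 of 21 (76.2%). Members of the C and A set matched miR-467h at 36.4% to 52.4%. The sets are complementary to each other instead. Without gaps, the best antisense alignments paired 13 to 18 bases between the sets and 3 to 11 within a set. That of miR-467g and miR-467h paired 17 bases, and that of miR-466i and miR-574-5p, the highest, paired 18.

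Signals were taken first as net intensity, the spot mean minus its local background. A probe was above background on an array when most of its spots exceeded a threshold set by that array's negative control spots (median plus 2.6 scaled median absolute deviations). Between 19 and 28 of the 43 members were above background in liver on each array, and between 18 and 28 in the reference pool. In liver 18 members were above background on all 12 arrays (41.9%), where 25.9% of all mouse probes were, and 15 members were above it on none (40.7% of all mouse probes). In the pool 18 members were above background on all 12 arrays (38.3% of all mouse probes). There 27 members were above it on 3 or more arrays of vehicle or of BaP (57.3% of all mouse probes). Tested between groups were the 22 members that exceeded the liver threshold on 3 or more arrays of vehicle or of BaP (51.2%, against 35.6% of all mouse probes). The filter lets a probe pass through either group, so the tested members are not all members. Intensity depends on how well a probe binds and on cross-binding of near-copies as well as on abundance, and signals of different probes are therefore not read as relative abundance.

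The 2 arrays scanned on the first of 4 scan days stood apart in detection. Their liver thresholds were 1.92 and 2.89, against 16.2 to 28.8 on the other 10. Above background on 1 or 2 arrays, and only on these 2, were 6 probes: miR-467e, miR-669a, miR-466g, miR-297c, miR-297/miR-297a and the probe shared by miR-466a-3p, miR-466b-3p, miR-466c-3p and miR-466e-3p. Without these arrays, a choice made after the data were seen, the count of members above background on every array was still 18. The count above it on none was 21, and 21 members met the condition for testing. The difference is miR-669h-3p, which passed on 5 of 12 arrays, 2 of vehicle and 3 of BaP. It thus met the condition through BaP alone.

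Of the 11 miR-467 probes, 5 were above background on all 12 liver arrays: the 3 starred probes and the unstarred miR-467f and miR-467g. miR-467e* was above background on all 12 liver arrays, with a net liver signal in vehicle of 217 at the lowest, 403 at the median and 536 at the highest, and in BaP of 271, 361 and 524. Its signal in the pool was 761 to 1208. The groups overlapped, and in liver the lowest array of either group was a vehicle array. miR-467b* (51.8 to 131) and the probe shared by miR-467a* and miR-467d* (41.5 to 162) were also above background on all 12. The unstarred miR-467a, miR-467b, miR-467c and miR-467d were above background on no liver array, with net liver signals between -16.0 and 27.2. Unstarred miR-467e passed only on the 2 arrays of the first scan day.

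miR-467b had a signal in the pool without one in liver. Its net signal there was 65.2 to 99.4, above background on 11 of 12 arrays, 6 of them vehicle, while its liver signal was between -10.6 and 8.9. Vehicle liver was at least 1.31-fold lower than the pool, a bound from the lowest signals above background on each array and open to dye bias. The measured normalized log2 signals were 6.15 in vehicle liver and 6.79 in the pool.

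All 3 members of the C and A set passed on each of the 12 liver arrays. miR-467g gave net liver signals of 106, 216 and 311 (lowest, median, highest) in vehicle and of 156, 186 and 321 in BaP, and 386 to 627 in the pool. miR-467f gave 120, 190 and 284 in vehicle and 152, 174 and 308 in BaP, and 352 to 574 in the pool. miR-466i gave 86.3, 147 and 253 in vehicle and 109, 139 and 255 in BaP. For each of the 3 the groups overlapped. Of the U and G set, miR-467h was above background on 11 liver arrays (9.8 to 50.2), and miR-466k (highest 10.8) and miR-466j (highest 7.9) on none. miR-1187 and miR-574-5p, whose U and G runs span 11 and 13 bases, passed on all 12 liver arrays.

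Among the miR-466 probes, 9 of 16 were above background on all 12 liver arrays and 5 on none. miR-466f-3p gave net liver signals of 151, 289 and 442 in vehicle and of 215, 276 and 395 in BaP, so that the groups overlapped. Its partner strand miR-466f-5p gave 20.5 to 56.0 and also passed on all 12 arrays, while the probe named miR-466f passed on none. miR-466a-5p (82.9 to 184), miR-466b-5p (42.3 to 125), miR-466c-5p (46.7 to 96.1), miR-466d-5p (59.5 to 121), miR-466e-5p (28.3 to 93.8) and miR-466d-3p (34.0 to 107) also passed on all 12. On no array did miR-466h, miR-466l, miR-466j or miR-466k pass.

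Of the 12 miR-669 probes, 6 were tested. miR-669f gave net liver signals of 136, 260 and 415 in vehicle and of 184, 261 and 372 in BaP, and 520 to 979 in the pool. miR-669d (86.0 to 202) and miR-669e (42.1 to 90.4) were above background on all 12 liver arrays, miR-669i (17.0 to 70.0) on 11 and miR-669c (15.7 to 36.9) on 9. On no liver array did miR-669b, miR-669g, miR-669h-5p, miR-669j or miR-669k pass, although the other strand of the miR-669h hairpin, miR-669h-3p, did on 5. Among the 4 miR-297 probes 1 was tested: the probe shared by miR-297b-3p, miR-297a* and miR-297c*, with 71.7, 130 and 220 in vehicle and 94.9, 121 and 183 in BaP. miR-297b-5p passed on no array.

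Grouped by the strand in the probe's name, a split made after the values were seen, 7 of 8 probes with 3p or a star were tested and none was below background on every array. Of the 8 probes with 5p, 6 were tested, all of them miR-466 probes, and 2 were above background on no liver array. Of the 27 probes that name no strand, 9 were tested and 13 were above background on no liver array.

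**Figure D1:**
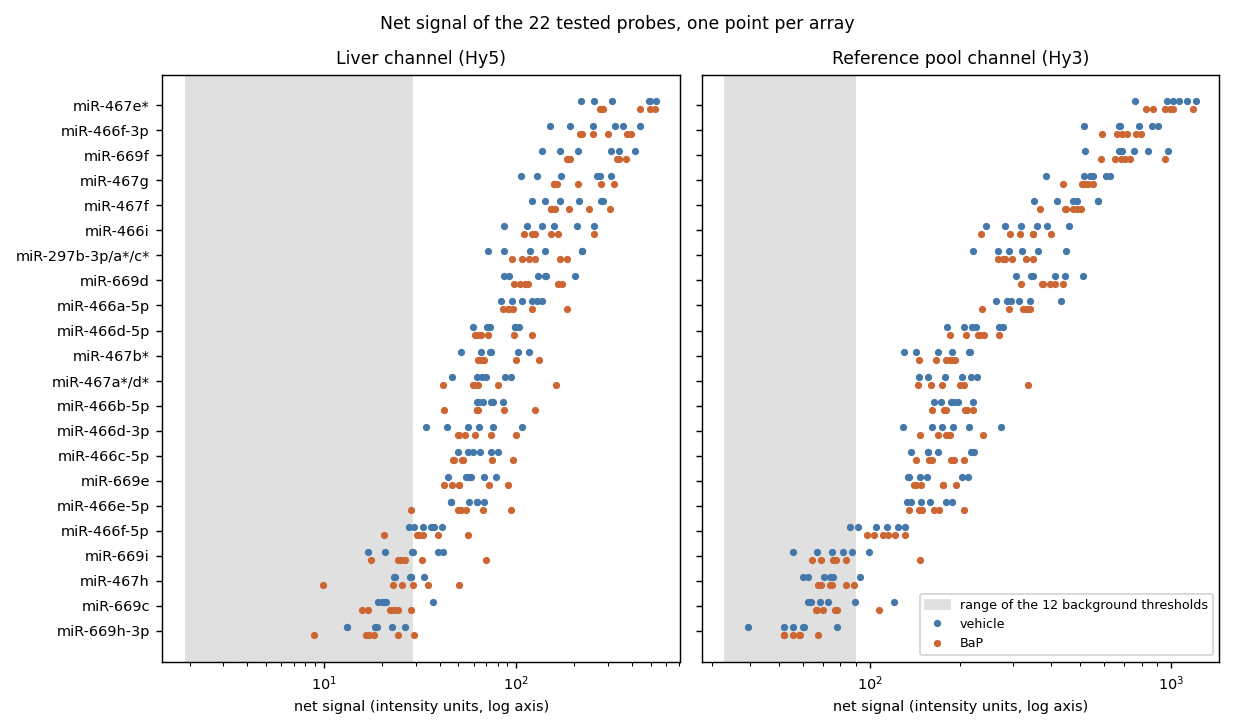
Net signal of the 22 tested probes in the liver channel (left) and the reference pool channel (right), in intensity units on a log axis, with 1 point per array (vehicle blue, BaP orange). The grey band is the range of the 12 background thresholds; vehicle and BaP points cover overlapping ranges for every probe, and miR-467e* lies between 217 and 536 in liver.

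As a check of the tissue label, the liver miRNAs miR-122, miR-192 and miR-194 were above background on all 12 arrays, with vehicle log2 liver over pool ratios of 3.72, 2.89 and 2.63. The deposited table of processed values runs the opposite way, pool over liver, so the signs here oppose it. Column by column, r was between -0.97 and -0.94 over mouse probes and between -0.93 and -0.64 over the tested members. The muscle miRNAs miR-1, miR-133a and miR-133b and the brain miRNA miR-9* were above background on no liver array, miR-124 on 1 and miR-9 on 2. The blood cell miRNAs miR-142-3p, miR-451 and miR-223 were above background on all 12 and miR-150 on 10.

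The ratio of liver over pool asks whether the family stands out in liver against other tissues. With loess no member differed 2-fold in either direction, though 5 were 2-fold lower with median centring and 1 when the software's own processed signals were used. The vehicle log2 ratios of the 22 tested members ran from -0.39 to 0.20 with a median of -0.01, 11 of them below 0 and 11 above. At 2-fold, 18.4% of all tested mouse probes were lower in liver than in the pool, 10.8% were higher, and 0 members were either. All tested probes ran from -3.38 to 3.72 with a median of -0.08. Within 0.5 of that median lay 22 of 22 members and 100 of 212 tested probes (47.2%). These are descriptions with no test, and the position of 0 is set by the scaling: with median centring in place of loess all 22 members were below 0 (median -0.71). With that scaling 22 of 22 members still lay within 0.5 of the median of all tested probes, which was itself -0.77. With the processed signals 19 of 22 did. In whole liver, fewer cells with a miRNA and less of it per cell cannot be told apart.

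With loess the members' mean vehicle ratios spanned less than 1 log2 unit, and with the processed signals they ran from -1.05 to 0.22. In vehicle, miR-467e* had -0.58 at the lowest array, -0.41 at the median and -0.16 at the highest (mean -0.39 ± 0.16, SD, n = 6), and in BaP -0.50, -0.33 and -0.11 (mean -0.32 ± 0.15). Its vehicle mean was -1.05 with the processed signals and -1.18 with median centring. miR-669f had a mean of -0.34 ± 0.13 in vehicle and -0.27 ± 0.11 in BaP, and all 12 arrays were below 0. miR-466f-3p (-0.23 ± 0.15 in vehicle), miR-669d (-0.21 ± 0.10), miR-467g (-0.16 ± 0.15) and miR-466a-5p (-0.11 ± 0.10) were also below 0 on average. All 6 of these stayed below 0 with every scaling run, as did the other members below 0 with loess. Among those others, miR-466d-3p had -0.11 ± 0.06 in vehicle. At the other end stood miR-467b* (0.20 ± 0.06 in vehicle, 0.23 ± 0.14 in BaP), above 0 on all 12 arrays but at -0.54 with median centring. miR-466i had 0.15 ± 0.08 in vehicle, -0.72 with median centring and -0.01 with the processed signals. The members with a 3′ or star name lie at both ends of this range.

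**Figure D2:**
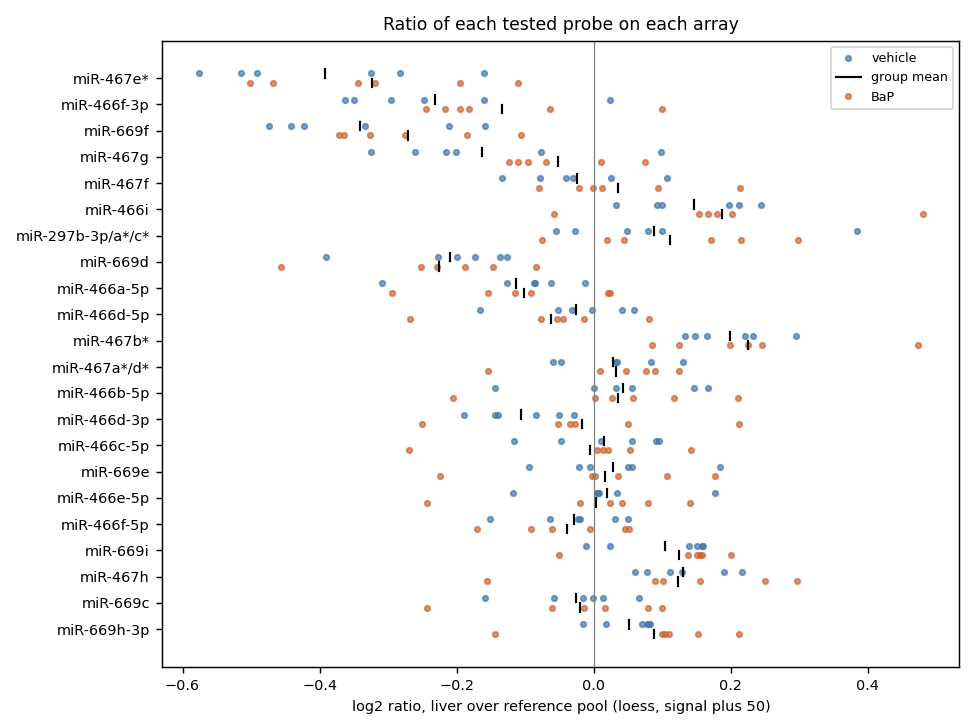
Log2 ratio of liver over reference pool for the 22 tested probes (loess within arrays, on the scale of signal plus 50), 1 point per array with the mean of each group as a black tick. Vehicle means run from -0.39 for miR-467e* to 0.20 for miR-467b*; with median centring in place of loess all 22 vehicle means are below 0.

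The comparison of BaP with vehicle asks whether exposure changed these miRNAs 4 h after the last dose. No member passed the test: limma called 0 of 22 at an adjusted p under 0.05, where it called 0 of all 212 tested mouse probes (0%). At an unadjusted p under 0.05 limma counted 0 members (0.943% of all tested probes) and the exact permutation test 0 (1.42%), and the exact test called 0 probes after adjustment (0%). The groups overlapped for all 22 members (0% of all tested probes were free of overlap). The smallest adjusted p of a member was 0.992 by limma. The log2 differences ran from -0.04 to 0.11 with a median of 0.02, which was also the median of all tested probes. Of the members 14 were higher in BaP and 8 lower (59.4% of all tested probes were higher). Among the 14 is miR-669h-3p, which passed the liver filter through BaP alone.

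The intervals of the differences were narrow. Their median half-width over the tested members was 0.15 log2, against 0.19 over all tested probes. Every member's 95% limma interval excluded changes of 1.5-fold or more, as did those of 199 of the 212 probes. The end farthest from 0 was 0.27 log2, for miR-466f-3p. This bound holds for the scale of signal plus 50, which understates the change of dim probes.

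The 5 members with the smallest p were all higher in BaP, except within the first scan day, where all 5 were lower. miR-467g was 0.11 higher in BaP on the log2 scale (interval -0.05 to 0.27, exact permutation p = 0.145), from -0.16 ± 0.15 in vehicle to -0.05 ± 0.08. All 6 BaP arrays lay above its vehicle mean, yet the vehicle range of -0.32 to 0.10 contained every BaP value from -0.12 to 0.07. miR-466d-3p was 0.09 higher (interval -0.06 to 0.24, exact permutation p = 0.225), with 5 of 6 BaP arrays above the vehicle mean. miR-466f-3p was 0.10 higher (-0.07 to 0.27, exact permutation p = 0.249), also in 5 of 6. miR-467f (0.06, exact permutation p = 0.290) and miR-669f (0.07, exact permutation p = 0.335) complete the 5. The exact tests were two-sided. Adjusted over all tested probes, limma gave each of these 5 a p of 0.992.

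Split by the strand in the name, after the values were seen, all 7 tested probes with 3p or a star were higher in BaP (0.0035 to 0.10 log2). Among these 7, miR-669h-3p was above background on 3 BaP arrays but 2 vehicle arrays, so it was tested through BaP alone. Of the 6 with 5p, 1 was higher (-0.04 to 0.01), and of the 9 naming no strand, 6 were. All 6 with 5p were miR-466 probes, so for them strand and family cannot be told apart. These counts are of signs of differences that limma did not call, and they shift with the scaling. With median centring all 22 members were higher, and with no normalization within arrays 9 were. The median difference of all tested probes shifted as well, to 0.08 and -0.01, the same as that of the members.

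**Figure D3:**
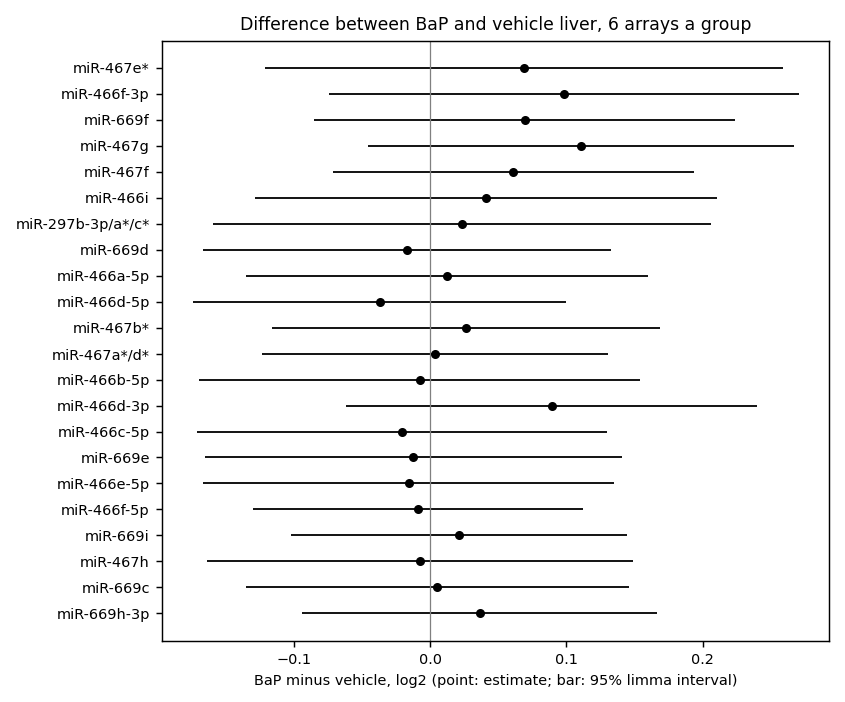
BaP minus vehicle difference in log2 ratio for the 22 tested probes (points) with 95% limma intervals (bars), 6 arrays per group. Every interval includes 0 and the largest difference is 0.11 for miR-467g; 14 probes are higher in BaP here, 22 with median centring and 9 with no normalization within arrays.

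The differences varied between scan days and with the array left out. A day held 1 or 2 arrays of a group, so day and array cannot be told apart. The mean log2 ratio of the 22 tested members was -0.04 ± 0.06 (SD, n = 6) over the vehicle arrays, with a range of -0.12 to 0.03. In BaP it was -0.01 ± 0.10, with a range of -0.19 to 0.12. The lowest array was BaP 1 and the highest BaP 2, so both ends of the range belonged to 1 group. Each scan day held both groups. Within the first day, with 1 array per group, all 22 members were lower in BaP (median -0.22). On the second day, with 1 vehicle and 2 BaP arrays, 12 were higher and 10 lower (median 0.01). On the third, with 2 of each, 21 were higher and 1 lower (median 0.12), and on the fourth, with 2 vehicle and 1 BaP array, 20 were higher and 2 lower (median 0.05). No member kept its direction on all 4 days. Within days only the members were counted, not all tested probes. Leaving out BaP 1 made 22 of 22 members higher (median 0.05), and leaving out BaP 2 made 9 of 22 higher (median -0.01). The median of all tested probes was -0.01 without BaP 1 and 0.01 without BaP 2. With scan day as a block the smallest adjusted p of a member was 0.828 by limma, and 11 members were higher.

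**Figure D4:**
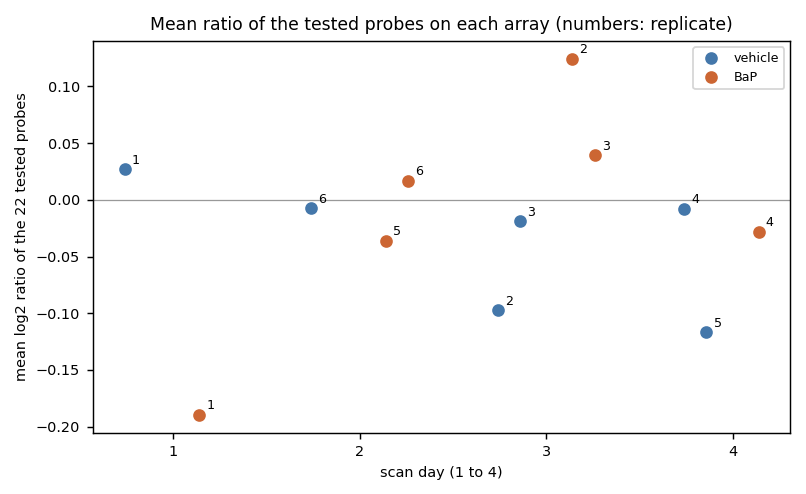
Mean log2 ratio of the 22 tested probes on each array, by scan day (1 to 4), with replicate numbers beside the points (vehicle blue, BaP orange). BaP 1 is lowest at -0.19 and BaP 2 highest at 0.12, and the order of the groups differs between scan days 1 and 3.

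With loess, the log2 ratio spread less between arrays for the family than for all tested probes, mainly in vehicle. The median SD of the log2 ratio over the tested members was 0.08 in vehicle and 0.13 in BaP, against 0.15 in each group over all tested probes. In the liver channel the median SD was 0.15 for members and 0.18 for all tested probes, and in the reference channel 0.11 and 0.14. The vehicle SDs of single members depended on the scaling. They were 0.04 to 0.16 with loess, 0.12 to 0.34 with the processed signals and 0.17 to 0.48 with no normalization within arrays. Net liver signals of the members were in the range of other tested probes: the median over members was between 55.7 and 128 on each array, and that over all tested probes between 53.7 and 126. Outlier-marked spots were 19 of 2064 member spots (0.921%), against 4.01% of mouse spots, and no member spot was saturated.

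The members moved together across arrays. Over the 12 arrays, the log2 liver signal of 2 tested members correlated with a median Pearson r of 0.48 over 231 pairs, after normalization within and scaling between arrays. The median r was -0.11 between a member and another tested probe and 0.11 over all pairs of tested probes. The log2 ratio gave a median of 0.58 for member pairs and 0.15 for all pairs, and 59.7% of member pairs had an r above 0.5, against 21.6% of all pairs. The points share arrays, labelling and scans, and near-copies can bind the same RNA, so these values are descriptions.

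Covariation was present in the reference channel too, although the labels give the same kind of pooled reference on every array. There the median r was 0.34 for member pairs, 0.05 for a member with another probe and 0.15 for all pairs. Of member pairs 35.9% exceeded 0.5, against 20.8% of all pairs. The scaled channels of an array share its average signal, so they are not separate measurements. Before scaling between arrays the correlations were higher: the median r was 0.82 in liver for member pairs and 0.64 for all pairs, and 0.80 and 0.51 in the pool. Taken as deviations from the scan day means, a choice made after the data were seen, the liver median was 0.56 for member pairs and 0.09 for all pairs, and that of the ratio 0.68 and 0.08. As deviations from the group means it was 0.49 and 0.11. Leaving out BaP 5 lowered the median of the reference channel to 0.18, and the lowest liver median on leaving out an array was 0.44.

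Of the 3 closest pairs in the liver channel, 2 joined different families and 1 lay within miR-467. miR-466c-5p and miR-669e had an r of 0.94 in liver and 0.93 in the pool. miR-466f-5p and miR-467h also had 0.94 in liver and 0.90 in the pool. miR-467f and the probe of miR-467a* and miR-467d* had 0.94 and 0.81. At the other end, all 3 of the lowest pairs held miR-467e*: its r was -0.72 with miR-466b-5p, -0.58 with miR-466e-5p and -0.54 with miR-467h. In the pool these pairs had -0.65, -0.60 and 0.05, so the first 2 were opposed in both channels. Since the scaled channels share each array's average signal, the values of the 2 channels are not independent.

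Probes of the same strand differed in how closely they moved. The 15 pairs of 5p probes had a median liver r of 0.82 and a lowest of 0.64, and their median was 0.58 in the pool. The 21 pairs of 3p or star probes had a median of 0.46, with a range of -0.31 to 0.91. Pairs of a 3p or star probe with a 5p probe had a median of 0.31 over 42 pairs, from -0.72 to 0.85. This split was also made after the values were seen. All tested 5p probes were miR-466 probes, while the tested 3p or star probes came from miR-297, miR-466, miR-467 and miR-669. For the 5p pairs, strand and family therefore cannot be told apart.

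Sequence likeness can be set beside covariation for the 4 tested members whose sequences are shown above. miR-467g and miR-467f, alike at 81.0% of bases, had an r of 0.82 in liver and 0.81 in the pool. miR-467f and miR-466i, alike at 76.2%, had 0.88 and 0.51, and miR-467g and miR-466i, alike at 71.4%, had 0.77 and 0.19. Each of these 3 had an r between 0.11 and 0.40 in liver with miR-467h of the U and G set. In the pool their r with miR-467h was -0.19 for miR-467g, 0.08 for miR-467f and 0.37 for miR-466i. The 3 pairs within the C and A set thus lay above the 3 pairs with miR-467h in liver but not in the pool. Over these 3 pairs within the set, the order of r followed identity in the pool but not in liver.

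**Figure D5:**
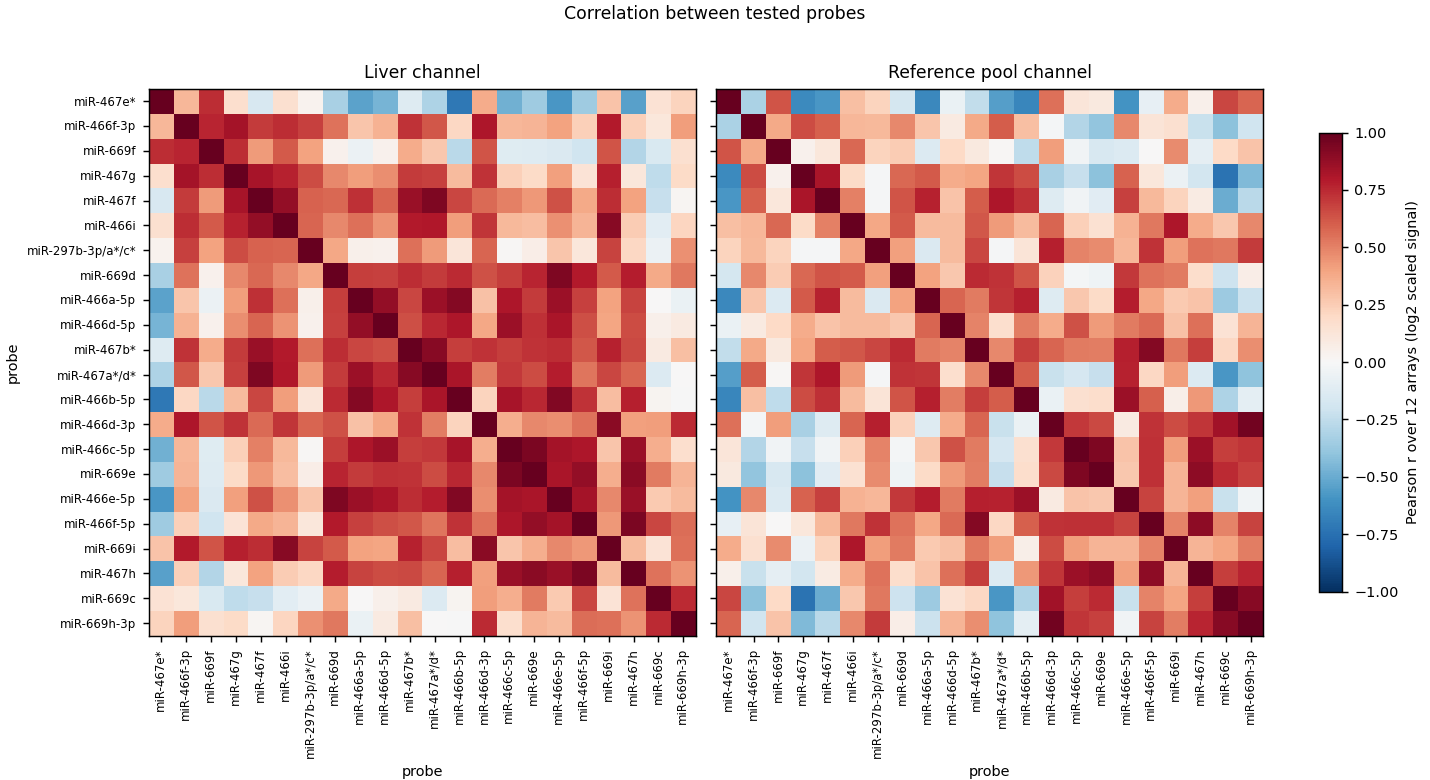
Pearson correlation over the 12 arrays between the 22 tested probes, for the log2 scaled signal in the liver channel (left) and the reference pool channel (right), from -1 (blue) to 1 (red), with probes in the same order on both axes. All squares that join 5p probes, here all miR-466 probes, are red in liver (0.64 to 0.93). miR-467e* is blue against miR-466b-5p in both channels (-0.72 and -0.65).

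Outside the family, the tested or untested mouse probes whose log2 liver signal was most like the mean of the 22 members over the 12 arrays were miR-423-5p (r = 0.85), miR-468 (0.82), miR-30c-2* (0.81), miR-1187 (0.81) and miR-568 (0.76). Of these, miR-30c-2* was above background in liver on 2 arrays and miR-568 on none, so their values there are near background. In the reference channel the r was 0.82 for miR-468 and 0.79 for miR-1187, and 0.39, 0.14 and -0.20 for miR-423-5p, miR-30c-2* and miR-568. miR-1187, whose sequence matches miR-466j at 19 of 23 bases, had a vehicle ratio of 0.04 ± 0.09 and a BaP difference of 0.01 (exact permutation p = 0.916). miR-574-5p had an r of 0.72 in liver and 0.16 in the pool, a vehicle ratio of 0.03 ± 0.14 and a difference of -0.06 (exact permutation p = 0.548). A probe named miR-466b-3-3p lies just outside the naming rule and was tested. It was above background on 9 liver arrays, with a vehicle ratio of -0.15 ± 0.06 and a BaP difference of 0.07 (exact permutation p = 0.323). Probes named only for rat miR-466b and rat miR-466c, which were not tested, were above background on all 12 liver arrays (mean net signals 51.7 and 43.7), and that for rat miR-297 on none.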

How the data were processed

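Small RNA was measured on 12 two-colour arrays, 6 per group, and groups came from the labels. The authors deposited linear, unnormalized spot intensities. Agilent Feature Extraction 9.5.3.1 is the tool that the submitters' processing notes name. The deposited table of processed values is on a log2 scale by comparison with these intensities (slope near -1 for each array). It runs as pool over liver, has column medians between -0.0918 and -0.000345, and its normalization and centring are not given in the sources used here. It was used as an alternative, with its sign turned. Of its 2001 rows, 248 held values on all arrays, 39 of them members. Because the file's own flag for signal over background marked every spot, the threshold was set from 28 negative control spots per array.

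limma 3.58.1 under R 4.3.3 was used for normexp background correction (offset 50) and for loess within arrays, in which control and outlier-marked spots had weight 0. The 212 mouse probes over the liver threshold on 3 or more arrays of vehicle or of BaP were fitted with lmFit and eBayes and adjusted by Benjamini-Hochberg at 0.05. Two-sided exact permutation tests used all 924 regroupings of the 12 arrays, with a smallest p of 0.00216. Correlations used log2 signals after loess and quantile scaling of the average signal, so the channels of an array share that average. The fit was tested on simulated data. The number of arrays limits the precision.

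Named were the tested members, the 5 members with the highest pool signal, the 5 smallest p, the 3 highest and 3 lowest liver pairs and the 5 most like other probes. Other probes, among them those above background on few or no arrays, were named after their values were seen. The members and lists were chosen with earlier results of these data known. Sequences and gene positions are from RefSeq (GRCm38.p6). Probe names are those of the array design and can be old. Alternatives covered background, normalization, channel use, filters, spots, scan day and left-out arrays.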

Additional observations from a re-analysis of the deposited data

Results flagged for a closer look

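In 4 of 44 tests of a member in a group of 6, the lowest or highest log2 ratio stood apart from the other 5 by Dixon's criterion, which chance alone meets in about 1 of 20 groups. The probe shared by miR-297b-3p, miR-297a* and miR-297c* had 0.38 on vehicle 5, where the other vehicle arrays had -0.05 to 0.10. The other 3 concern BaP 1, the array with the lowest mean ratio of the family. There miR-466c-5p had -0.27 against 0.0042 to 0.14 on the other BaP arrays. miR-669i had -0.051 against 0.14 to 0.20, and miR-669h-3p had -0.14 against 0.10 to 0.21.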

How the results depend on the processing

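Under 26 alternatives of the BaP comparison limma called no member, and no other mouse probe. Within scan day 1 the difference turned negative for miR-467g (-0.17), miR-466d-3p (-0.20), miR-466f-3p (-0.22), miR-467f (-0.19) and miR-669f (-0.17); the cause was not tested, and that day held 1 array per group. The median difference of the members, 0.02, was -0.22 within day 1 and 0.12 within day 3. For liver signals scaled to their 75th percentile without the pool it was 0.17 (0.08 over all tested probes). On leaving out each array it was -0.01 to 0.05. Over the same left-out arrays it ran from 0.08 to 0.16 for miR-467g, 0.04 to 0.14 for miR-466d-3p, 0.05 to 0.15 for miR-466f-3p, 0.03 to 0.09 for miR-467f and 0.04 to 0.11 for miR-669f.

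The median liver over pool ratio, -0.01, was -0.13 with processed signals, -0.71 with median centring and -0.86 with no normalization; members below 0, 11, were 19, 22 and 22, and members at least 2-fold below, 0, were 1, 5 and 7. Without single vehicle arrays the median was -0.02 to 0.02 and 9 to 14 members were below 0. Median r of member pairs on unscaled net signals was 0.82 in liver, 0.80 in the pool and 0.89 for the ratio. Leaving out an array gave 0.44 to 0.58 in liver (highest without BaP 2), 0.18 to 0.42 in the pool (lowest without BaP 5) and 0.45 to 0.64 for the ratio (lowest without BaP 1). In 3 alternatives 1 member passed an unadjusted limma threshold of 0.05: miR-467g at 0.0355 with the deposited table and at 0.0198 without vehicle 1, and miR-466d-3p at 0.0417 without BaP 1. The smallest adjusted p over all probes there was 0.675. Counts of members above background stayed within 1.5 times under both other thresholds. The titles' numbers differ between groups but match in their last digit for 6 pairs, 5 of them on 1 scan day. A replicate block by that digit, chosen after the data were seen, called 0 probes (smallest adjusted limma p 0.345, of a member 0.952) and left the median at 0.02. Deviations of paired arrays correlated between -0.08 and 0.74, with 4 of 6 over 0.1. For 3 of the 6 vehicle arrays the best BaP partner had the same digit. With 5 pairs on 1 scan day, digit and day can hardly be told apart, so these values do not decide on a pairing. No label explains the digit, and it was not used as a pairing in the main test. miR-669h-3p, above background on 5 arrays, and miR-669c, on 9, rest on signals near background.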
